A study of Mus musculus with 12 samples.

Results

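Microglia of the cerebellum were compared with microglia of the hippocampus across all expressed genes. The comparison uses the 3 cerebellum and the 3 hippocampus libraries, 6 of the 12 libraries in the series, chosen by their region labels. The other 6 libraries come from cortex and striatum and served here to estimate the spread between libraries. They also entered the filter on low counts and the scaling. All mice were wild-type male C57BL/6N animals at postnatal day 60, and the labels name no treatment. For each library, tissue of the region was pooled from 3 to 5 mice, kept cold, dounced and freed of myelin, and cytometry then collected 3000 living cells that stained for TMEM119 and CD11b with low CD45. The Smart-Seq v4 kit, a full-length method for very small amounts of RNA, made the cDNA, and it keeps no record of the strand. The labels do not say whether the pools of a region held different mice, or whether pools of both regions shared mice, so the p-values below rest on the variation among these libraries, and that variation may be technical. In a bulk library, fewer cells of a type and less RNA per cell cannot be told apart.

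Microglia are the resident macrophages of the brain parenchyma. They depend on signalling through the receptor Csf1r, and in the healthy adult they express a homeostatic set of genes that includes Tmem119, P2ry12, Cx3cr1 and Sall1. Activated microglia lower parts of this set and express genes of lysosomes, lipid handling, antigen presentation and adhesion, a programme known as disease-associated. Cerebellar microglia have been described as sparser and less branched than those of the forebrain, and as more active in clearance and immune surveillance. The series profiled adult homeostatic microglia by region, and this pair of regions sets the hindbrain beside a forebrain region.

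The 6 libraries held between 8537139 and 12897889 counts and between 12214 and 13614 detected genes. All replicates were distinct libraries, since pairs of the same region differed by a chi-square per degree of freedom of 34.5 to 87.9. Hippocampus 2 and cerebellum 3 stood apart from the other libraries of their regions in several gene groups below, and the groups they lead are given with and without them. In the library striatum 2, which enters only through the shared spread, the filter and the scaling, 986 of 10018 well-covered genes (mean of at least 50 counts) were listed at 0, against 4 to 44 in the other libraries. Levels are given in CPM, the count divided by the TMM-scaled library size, and differences as log2 of cerebellum minus hippocampus from edgeR.

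The sorted cells carried the homeostatic microglia genes at high levels in both regions. Csf1r, the receptor for the microglial survival factors, stood at 8489.6, 7761 and 9674 CPM in cerebellum libraries 1 to 3 and at 8196, 7285 and 7966 CPM in hippocampus libraries 1 to 3. Tmem119, the gene of the sorting gate, was at 3239, 2041 and 1082 CPM in cerebellum and at 2132, 1951 and 1711 CPM in hippocampus. The libraries of both regions overlapped for these genes, and cerebellum 1 and cerebellum 3 held the extremes of Tmem119. Sall1, a transcription factor of microglial identity, ranged from 392 to 939 CPM in cerebellum and from 321 to 667 CPM in hippocampus.

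Of the 30 homeostatic genes, all were tested, 20 lay higher and 10 lower in cerebellum, and their median log2 difference was 0.07. The same median over all 12217 tested genes was 0.01, with 51.3% of genes higher and 48.7% lower. For 27 of the 30 genes the 95% interval of the difference lay within 2-fold either way, which was the case for 34.5% of all genes tested but for 91.5% of those at 200 CPM or more, where most of these genes lie. P2ry12, the ADP receptor of resting microglia, had a log2 difference of 0.06 with an interval from -0.30 to 0.43. The fractalkine receptor Cx3cr1 had a difference of -0.19 with an interval from -0.77 to 0.40. Without cerebellum 1 the median of the list was -0.11, and cerebellum 1 held the highest value of the 6 libraries for 20 of the 30 genes.

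No gene passed an adjusted p of 0.05 in the edgeR quasi-likelihood test with Benjamini-Hochberg adjustment over 12217 genes (0 called, 0%), and the adjusted p of every gene was 1.00. At an unadjusted p under 0.05 there were 156 genes (1.28%), of which 88 lay higher (0.72%) and 68 lower (0.557%) in cerebellum. DESeq2 on the same genes called 2 (0.0164%) and limma-voom called 0 (0%), with 185 (1.51%) and 175 (1.43%) genes at an unadjusted p under 0.05. Each share at the unadjusted threshold lay below what 0.05 would let through on average if no gene differed. The 156 became 357 without cerebellum 1 and 351 without striatum 2, with 0 past the adjusted threshold in each. Both DESeq2 calls rested on few libraries. Mum1l1 was at 0 in all cerebellum libraries and at 0.105, 0 and 5.05 CPM in hippocampus, and Ppp2r2c was above 0 only in hippocampus 2, at 1.11 CPM. These 2 genes were named after their values were seen.

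Libraries of a region were no more alike than libraries of different regions. Across the tested genes, the correlation of log2 CPM averaged 0.9088 over the 6 pairs within a region (0.888 to 0.920) and 0.9106 over the 9 pairs between regions (0.890 to 0.936). The closest pair of all was cerebellum 1 with hippocampus 2. These are correlations across genes, which are not independent replicates. The 3 libraries of a region did not overlap with those of the other region for 932 genes (7.63%), 498 higher (4.08%) and 434 lower (3.55%) in cerebellum. Of the 156 genes at an unadjusted p under 0.05, 107 were among them. The count of genes whose libraries do not overlap was between 1703 and 3171 when any 1 of the 6 libraries was left out. With so few libraries a region, some genes separate by the order of the libraries alone, so these counts by themselves show no regional difference.

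The precision of the differences depended on the level of the gene. Among the 970 genes with a mean of 200 CPM or more, the interval lay within 2-fold for 888 (91.5%), and 1 gene had a log2 difference beyond 1 in size. Between 50 and 200 CPM the interval lay within 2-fold for 2599 of 3786 genes (68.6%). Between 10 and 50 CPM this held for 17% of 4293 genes, and between 1 and 10 CPM for 0 of 2504. Under 1 CPM it held for 3 of 664 genes. A fitted difference of exactly 0 was given an interval of no width, so such a gene counts here without being precisely measured. The plot of differences against level shows this widening.

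**Figure D1:**
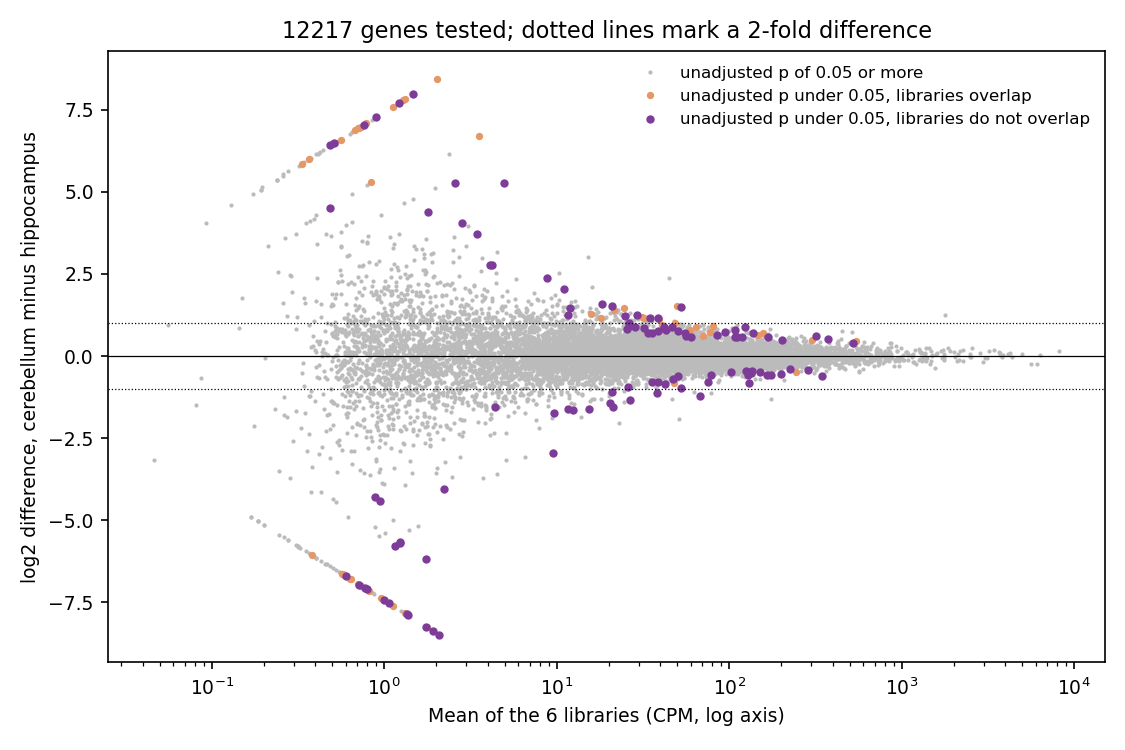
Log2 difference (cerebellum minus hippocampus, edgeR) of each of the 12217 tested genes against its mean level in the 6 libraries (CPM, log axis), with dotted lines at a 2-fold difference. Coloured points are the 156 genes at an unadjusted p under 0.05, purple where the 3 libraries of each region do not overlap; none passed the adjusted threshold, and the spread narrows with level.

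Genes with the smallest p among those whose libraries did not overlap are described next. Their number was fixed by the rule of choice, and 7.63% of all genes did not overlap. None of the chosen genes passed the adjusted threshold (adjusted p of 1.00 for each, edgeR quasi-likelihood test with Benjamini-Hochberg adjustment). Among genes of 10 CPM or more, those higher in cerebellum began with Abl1, a non-receptor tyrosine kinase (chromosome 2, 31688244 to 31807093, RefSeq coordinates on GRCm38). Abl1 stood at 136, 169 and 176 CPM in cerebellum and at 73.4, 71.4 and 113 CPM in hippocampus. Its lowest cerebellum library lay above its highest hippocampus library, and the log2 difference was 0.90 (SE 0.24, interval 0.38 to 1.42, unadjusted p = 0.00264, adjusted p = 1.00 in edgeR). Aars2, the mitochondrial alanyl-tRNA synthetase (chromosome 17, 45503515 to 45520843), was at 49.9, 61.2 and 49.4 CPM in cerebellum and at 28.1, 25.7 and 18.6 CPM in hippocampus, a log2 difference of 1.15 (SE 0.36, interval 0.37 to 1.93). Tha1, a threonine aldolase, was at 29.9, 28.3 and 46.3 CPM against 13.2, 17.4 and 14.4 CPM. The difference of Tha1 was 1.21 (SE 0.36), and 10.3% of its exonic bases are shared with another annotated gene, so its reads cannot be assigned with certainty without strand.

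Several of the other genes on the higher side had 1 cerebellum library well above the rest. Col27a1, a fibrillar collagen, was at 49.8, 55.5 and 127 CPM in cerebellum and at 22.7, 16.98 and 42.8 CPM in hippocampus. Vamp1, a SNARE protein of vesicle fusion, was at 24.3, 37.7 and 62.4 CPM in cerebellum and at 18.2, 11.9 and 21.6 CPM in hippocampus. Cerebellum 3 was the highest library for both, and without it and hippocampus 2 the log2 difference of Col27a1 went from 1.49 to 0.68 and that of Vamp1 from 1.26 to 0.64. Dip2a was at 24.8, 23.5 and 34.5 CPM against 9.27, 10.7 and 7.46 CPM, and its difference of 1.59 became 1.53 without those libraries. Tef, a transcription factor of the PAR bZIP family that follows the circadian clock, was at 49.7, 62.8 and 69.5 CPM against 25.4, 30.9 and 41.5 CPM. Its log2 difference was 0.90 (SE 0.31). Taok2, a kinase of the STE20 group, had a difference of 0.79, Exd2, an exonuclease, of 0.84, and Fam120c, with 11.5% of its exonic bases shared with another gene, of 2.05 from 4.29 CPM in hippocampus. At higher levels, Akap8l, a nuclear anchoring protein, stood at 441 ± 55.7 CPM in cerebellum and 304 ± 37.0 CPM in hippocampus (SD, n = 3 each), and Slc12a9 at 385 ± 102 and 251 ± 51.0 CPM.

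On the lower side the smallest p belonged to Cd74, the invariant chain that escorts MHC class II molecules. Cd74 stood at 39.8, 39.8 and 42.2 CPM in cerebellum and at 126, 61.9 and 95.1 CPM in hippocampus. The cerebellum libraries lay close together and the hippocampus libraries spread over a 2-fold range above them. The log2 difference was -1.22 (SE 0.37, interval -2.02 to -0.41, unadjusted p = 0.00604, adjusted p = 1.00 in edgeR). Without hippocampus 2 and cerebellum 3 the difference of Cd74 was -1.47. For comparison, Cd74 ranged from 104 to 136 CPM in the cortex libraries and from 18.4 to 54.9 CPM in the striatum libraries.

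Anxa2, a phospholipid-binding annexin of membranes and adhesion (chromosome 9, 69453683 to 69491792), stood at 2.32, 1.87 and 2.39 CPM in cerebellum and at 10.01, 28.8 and 11.96 CPM in hippocampus, a log2 difference of -2.94 (SE 1.00). Ada, the adenosine deaminase that turns adenosine into inosine (chromosome 2, 163726571 to 163750239), was at 12.8, 5.78 and 4.07 CPM against 24.4, 18.6 and 26.9 CPM. All 3 hippocampus libraries exceeded the cerebellum libraries for both genes, by a wide margin for Anxa2 and a narrower one for Ada. Entpd7, an intracellular nucleoside triphosphatase, was at 5.09, 17.3 and 10.4 CPM in cerebellum and at 42.4, 25.7 and 21.4 CPM in hippocampus. Dab2, a clathrin adaptor of endocytosis (chromosome 15, 6299788 to 6440715), was at 238, 282 and 298 CPM against 455, 318 and 472 CPM. Its log2 difference was -0.61 (SE 0.23), and -0.83 without hippocampus 2 and cerebellum 3.

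Hspd1, Ak3 and Adck3 on the lower side encode mitochondrial proteins, as does Aars2 on the higher side. Hspd1, the mitochondrial chaperonin, stood at 104, 127 and 101 CPM in cerebellum and at 143, 169 and 162 CPM in hippocampus. Ak3, an adenylate kinase of the mitochondrial matrix, was at 52.2, 56.8 and 57.6 CPM against 91.9, 105 and 90.5 CPM. The separation was wider for Ak3 than for Hspd1, but 22.9% of the exonic bases of Ak3 are shared with neighbouring genes. Adck3 (now Coq8a), an atypical kinase of coenzyme Q synthesis, had a log2 difference of -1.63 (SE 0.66). Also on this side were Gyg, the primer of glycogen synthesis, at -0.80, Keap1, the cytoplasmic partner of Nrf2, at -0.57, and Dok2, a docking protein of tyrosine kinase signalling, at -1.35. Of the exonic bases of Keap1, 10.9% are shared with another gene.

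**Figure D2:**
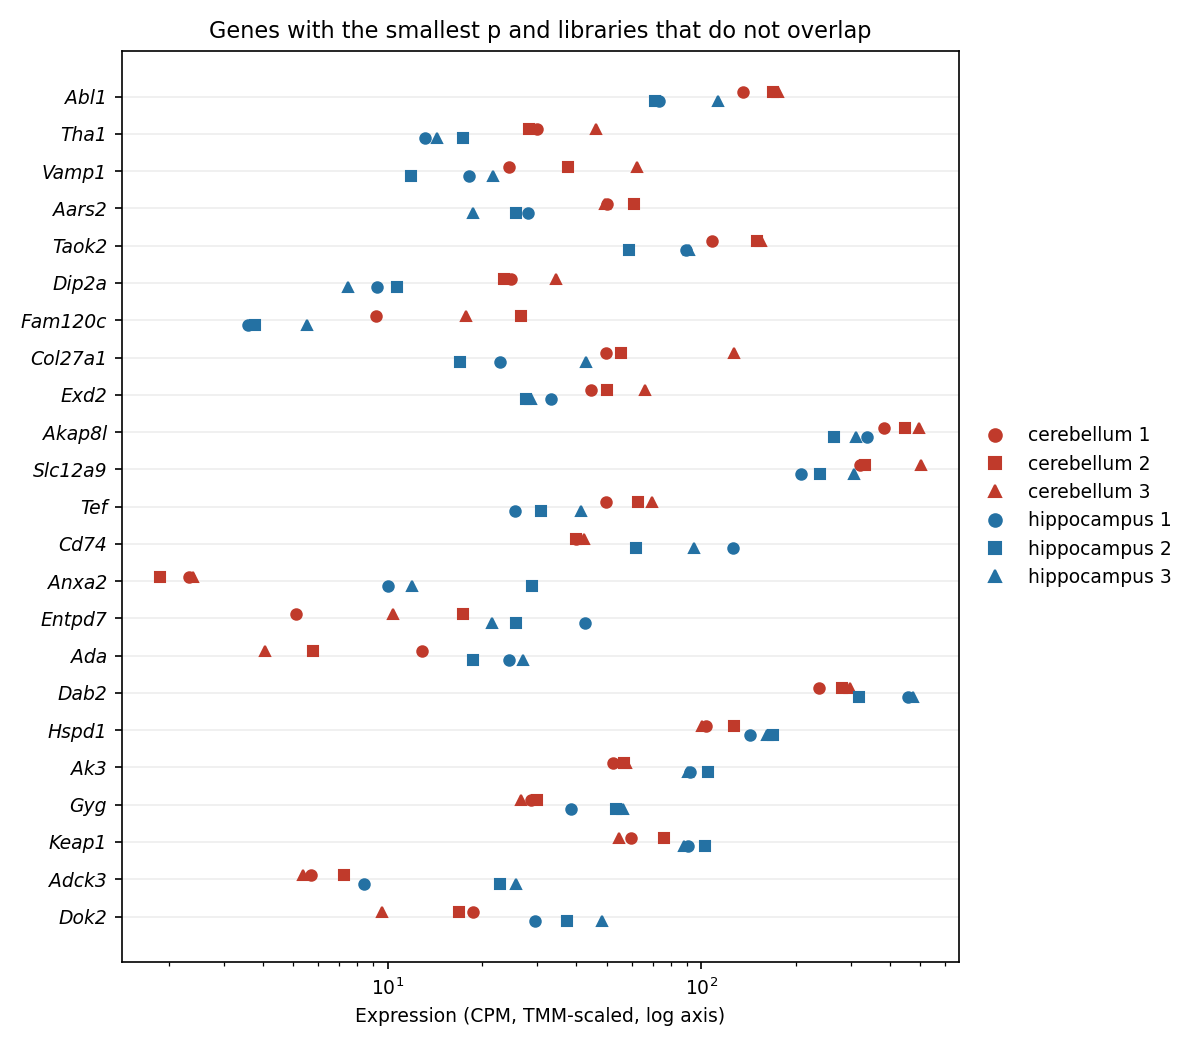
Level (CPM, log axis) of 23 of the 24 genes chosen at 10 CPM or more, those higher and then those lower in cerebellum, with 1 point for each of the 3 cerebellum (red) and 3 hippocampus (blue) libraries. The genes were chosen because the colours do not overlap and their p was small, so the separation is the rule of choice; Ak3 shows compact groups, Col27a1 and Vamp1 a high cerebellum 3.

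When hippocampus 2 and cerebellum 3 were left out, Abl1, Tha1, Aars2, Cd74, Entpd7 and Dab2 stayed under an unadjusted p of 0.05, 6 of the 24 genes chosen at 10 CPM or more. The sign of their differences was fixed by the choice of genes without overlap. Over all genes, 28 of the 156 genes stayed under that p, and 0 of 12576 genes passed the adjusted threshold (0%), with 104 at an unadjusted p under 0.05 (0.827%), 59 higher (0.469%) and 45 lower (0.358%). With 2 libraries a region, 3868 genes did not overlap (30.8%), 2063 higher (16.4%) and 1805 lower (14.4%), and the interval lay within 2-fold for 2610 (20.8%). The 2610 include genes with a difference of exactly 0, whose interval has no width. In that comparison 51.6% of all genes lay higher and 47.7% lower, which is the background for the list counts without those libraries below. The genes that led this reduced comparison at 10 CPM or more were mostly others, and they were named after their values were seen. Cep192, a centrosome protein, stood at 24.9, 24.8 and 88.3 CPM in cerebellum and at 65.4, 23.4 and 91.3 CPM in hippocampus. Its log2 difference was -1.66 without the 2 libraries and -0.39 with them. Gpn2, a small GTPase, was at 22.2, 15.8 and 24.4 CPM against 4.74, 19.5 and 5.44 CPM, a difference of 1.90 without them and 1.07 with them. Hippocampus 2 lay with the cerebellum libraries in both genes, and cerebellum 3 lay with the hippocampus libraries in Cep192.

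At low levels, 27 of 15462 genes with any count had counts in all cerebellum libraries and none in hippocampus (0.175%), and 32 showed the reverse (0.207%). Fgf1, a fibroblast growth factor, was at 0 in the 3 cerebellum libraries and at 4.53, 4.25 and 2.80 CPM in hippocampus, at least 37.4-fold lower in cerebellum against a floor of 3 counts over the region. Ptn, the secreted growth factor pleiotrophin, was at 0 against 3.79, 7.66 and 1.01 CPM, at least 39.5-fold lower on the same floor. Lrfn4, a synaptic adhesion protein, was at 0 against 2.42, 4.89 and 3.18 CPM, at least 35.0-fold lower. These transcripts were found in each hippocampus library and in no cerebellum library, at levels near a few CPM. Among the cortex libraries the same genes ranged from 0 to 3.10 CPM (Fgf1), 0 to 5.84 CPM (Ptn) and 0 to 1.90 CPM (Lrfn4). At this level a gene can thus be absent from 1 library and present in another of the same region. Ctla2a, an inhibitor of cysteine proteases, had 0, 0.0781 and 0 CPM in cerebellum and 2.74, 2.58 and 1.55 CPM in hippocampus, and 16.3% of its exonic bases are shared with other genes.

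The reverse pattern was seen for Stx19, a syntaxin, at 1.50, 1.64 and 1.44 CPM in cerebellum and 0 in hippocampus, at least 17.1-fold higher in cerebellum on the floor of 3 counts. Mmp17, a membrane-anchored matrix metalloproteinase, was at 1.27, 5.07 and 0.958 CPM against 0, at least 31.2-fold higher. These bounds also cover counting error only, and the intervals of the log2 difference were 2.81 to 11.28 for Stx19 and 2.49 to 12.94 for Mmp17. Ralgapa2, a subunit of the GTPase activator of Ral proteins, was at 2.20, 9.99 and 16.9 CPM in cerebellum and at 0, 0.646 and 0.0777 CPM in hippocampus. Prdm10, a zinc finger protein, was at 4.05, 3.36 and 11.8 CPM against 0, 1.11 and 0.311 CPM. Among these 4 genes only Stx19 was even across cerebellum. None of the 8 low genes passed the adjusted threshold (adjusted p of 1.00, edgeR). Fgf1, Ptn and Lrfn4 are also known from neurons or astrocytes. The summed pan-neuronal markers stood at 30.6, 77.5 and 30.4 CPM in hippocampus and at 30.0, 49.6 and 30.3 CPM in cerebellum, and the summed astrocyte markers at 37.6, 93.1 and 104 CPM and at 54.9, 63.9 and 113.7 CPM. Their part in these genes was not tested.

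Gene groups were described by their counts and medians beside those of all genes, of which 7.63% were without overlap (4.08% higher and 3.55% lower). The MHC class II list held 6 tested members of 9, and Cd74 and H2-Ab1, a chain of the class II molecule itself, were the 2 whose libraries did not overlap, both lower. H2-Ab1 stood at 12.2, 8.59 and 6.34 CPM in cerebellum and at 12.2, 15.97 and 17.3 CPM in hippocampus, so that cerebellum 1 and hippocampus 1 were practically equal. Its log2 difference was -0.75 with an interval from -1.96 to 0.47. The other 4 tested members, which include the peptide exchange factors H2-DMa, H2-DMb1 and H2-DMb2, lay between 0.01 and 0.41. Of the 15 class I presentation genes 11 lay higher, with a median of 0.09, and H2-K1, a classical class I heavy chain, was the 1 member without overlap at 321 ± 20.9 CPM in cerebellum and 279 ± 14.3 CPM in hippocampus (SD, n = 3 each).

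Complement genes were 8 higher and 6 lower of 14 tested, with a median of 0.05, and 6 higher and 8 lower with a median of -0.11 without hippocampus 2 and cerebellum 3. C5ar1, the receptor for C5a, stood at 138, 127 and 132 CPM in cerebellum and at 179, 169.9 and 245 CPM in hippocampus. C3ar1, the receptor for C3a, was at 236, 308 and 379 CPM against 405, 406 and 458 CPM. Every hippocampus library of both receptors exceeded every cerebellum library, and the log2 differences were -0.59 (SE 0.24, unadjusted p = 0.0324) and -0.46 (SE 0.25, unadjusted p = 0.0924), each with an adjusted p of 1.00 in edgeR. They were the 2 of the 14 without overlap, against 7.63% of all genes. Ccr1, a receptor for CC chemokines, was at 102, 129 and 54.6 CPM in cerebellum and at 188, 137 and 175 CPM in hippocampus, a difference of -0.81 (SE 0.35, unadjusted p = 0.0373, adjusted p = 1.00 in edgeR). Cerebellum 2 and hippocampus 2 of Ccr1 lay close together. Il10ra, through which microglia sense interleukin-10, was at 632, 543 and 617 CPM against 575, 432 and 465 CPM, with overlap and a difference of 0.28. Of the 22 chemokine and cytokine receptors tested 13 lay higher and 9 lower, with a median of 0.04, and 11 and 11 without hippocampus 2 and cerebellum 3.

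Disease-associated microglia genes were more often lower than higher in cerebellum, with wide differences among the libraries of each region. All 28 were tested, 5 lay higher and 23 lower, the median was -0.22, and 0 reached an unadjusted p of 0.05 (1.28% of all genes). Clec7a, the beta-glucan receptor dectin-1, stood at 4.63, 4.14 and 18.3 CPM in cerebellum and at 21.2, 60.3 and 29.5 CPM in hippocampus. Fth1, the ferritin heavy chain, was at 644, 542 and 669 CPM against 691, 911 and 701 CPM. These were the 2 of 28 members whose libraries did not overlap, a share near the 7.63% of all genes, with log2 differences of -2.04 (interval -4.56 to 0.48) and -0.31 (interval -0.67 to 0.05). Cadm1, an adhesion molecule, was at 65.4, 92.6 and 167 CPM against 181, 175 and 167 CPM, so cerebellum 3 alone reached the hippocampus level.

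The same library pattern ran through members with well-known roles, which were picked after their values were seen. Gpnmb, a membrane glycoprotein of lysosome-rich macrophages, was at 0, 0 and 18.2 CPM in cerebellum and at 0, 37.6 and 27.7 CPM in hippocampus. Itgax, the integrin CD11c, was at 0, 0 and 17.6 CPM against 0.211, 11.2 and 8.62 CPM. Spp1, the secreted phosphoprotein osteopontin, was at 24.5, 54.2 and 225 CPM against 29.8, 552 and 161 CPM. All 3 genes were highest in cerebellum 3 within cerebellum and in hippocampus 2 within hippocampus, and near their lowest in hippocampus 1 and the other cerebellum libraries. Igf1, the growth factor, followed with 12.6, 19.0 and 103 CPM against 11.6, 59.99 and 45.0 CPM. Lyz2, the macrophage lysozyme, ranged from 295 CPM in cerebellum 2 to 1059.6 CPM in hippocampus 2.

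Over the 28 genes, hippocampus 2 was the highest hippocampus library for 24 and cerebellum 3 the highest cerebellum library for 22. Hippocampus 2 held the highest of all 6 values for 57.1% of the list, against 16.7% of all tested genes. Leaving 1 library out moved the median from -0.53 (without cerebellum 3) to -0.01 (without hippocampus 2). Without both, 7 lay higher and 21 lower with a median of -0.35, and Itgax, Ank and Cadm1 were at an unadjusted p under 0.05 (0.827% of all genes). Of the libraries left, Itgax was well above 0 only in hippocampus 3. Ank, a pyrophosphate transporter, was at 13.2, 20.6 and 90.2 CPM in cerebellum and at 42.4, 68.0 and 37.3 CPM in hippocampus. In cerebellum 3 these 3 genes lay within or above the range of the hippocampus libraries, and the reduced comparison leaves that library out.

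**Figure D3:**
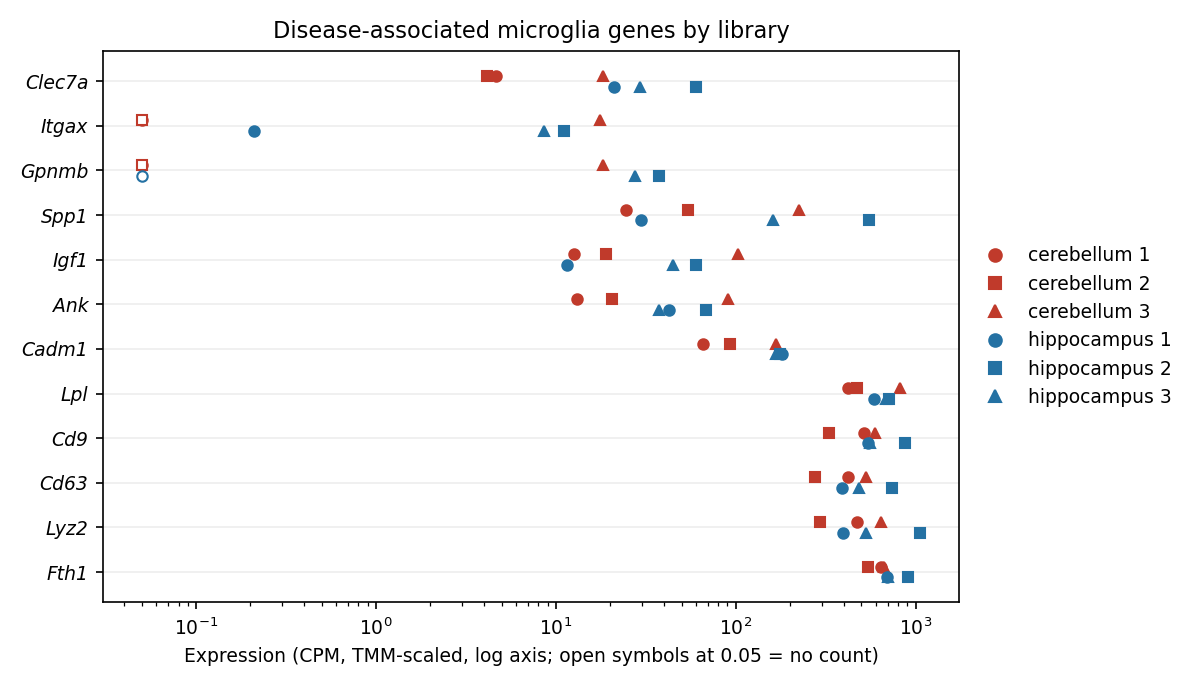
Level (CPM, log axis) of 12 disease-associated microglia genes in the 3 cerebellum (red) and 3 hippocampus (blue) libraries, with open symbols at 0.05 for libraries without a count. Cerebellum 3 (red triangle) and hippocampus 2 (blue square) lie to the right for most genes, as in Spp1 at 225 and 552 CPM, while cerebellum 1 and 2 lie to the left.

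Genes of lipid and cholesterol metabolism lay lower in cerebellum for 22 of 28 tested members, with a median of -0.31. Sqle, the squalene epoxidase of cholesterol synthesis, stood at 30.3, 38.7 and 11.01 CPM in cerebellum and at 86.9, 41.9 and 71.5 CPM in hippocampus. Hippocampus 2 lay near the cerebellum libraries and the other hippocampus libraries lay well above. Sqle, the mevalonate kinase Mvk and the transcription factor Srebf1 were among the 4 of 28 members without overlap, all lower (3.55% of all genes), with differences of -1.32 (SE 0.81), -0.64 (SE 0.57) and -0.18 (SE 0.24). Mvk and Srebf1 were named after their values were seen. Plin2, the coat protein of lipid droplets, was at 127, 109 and 236 CPM against 177, 372 and 229 CPM, with overlap through cerebellum 3. Cyp51, the lanosterol demethylase, had a difference of -0.65 carried by hippocampus 3 at 142 CPM. The mean log2 deviation of the list was -0.16, -0.24 and -0.17 in cerebellum and 0.26, 0.12 and 0.19 in hippocampus, without overlap. Among the 22 functional lists no other was without overlap in this measure, and with 3 libraries a region a list can separate by their order. None of the 28 reached an unadjusted p of 0.05, the interval lay within 2-fold for 7, and the median was between -0.38 and -0.22 when 1 library was left out and -0.41 (25 of 28 lower) without hippocampus 2 and cerebellum 3.

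Glycolysis genes lay lower for 18 of 24 tested members, with a median of -0.22. Tpi1, the triosephosphate isomerase, stood at 137, 114 and 116 CPM in cerebellum and at 145, 196 and 163 CPM in hippocampus. Pgk1, the phosphoglycerate kinase, was at 43.9, 41.0 and 30.8 CPM against 52.3, 71.8 and 53.8 CPM. Gpi1, the glucose phosphate isomerase, was at 99.8, 119 and 122 CPM against 125, 164 and 149 CPM. Each of these enzymes was lower in every cerebellum library, with log2 differences of -0.45, -0.62 and -0.36, and intervals that included 0. Gapdh, at 287, 255 and 271 CPM against 339.7, 344 and 324 CPM, and Eno1, at 19.7, 18.7 and 16.9 CPM against 27.4, 29.0 and 27.7 CPM, completed the 5 of 24 members without overlap, all lower (3.55% of all genes). Both were named after their values were seen, and pseudogenes of Gapdh and Eno1 make their counts less certain. Pkm2, the pyruvate kinase now called Pkm, had the smallest p of the list (unadjusted p = 0.0521, difference -0.39, adjusted p of 1.00 in edgeR). The glucose transporter Slc2a1 and the lactate dehydrogenase subunit Ldhb were at 0.02 and 0.00. Without hippocampus 2 and cerebellum 3, 16 of 24 lay lower with a median of -0.19, and with 1 library left out the median ran from -0.33 to -0.20.

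Nuclear genes of oxidative phosphorylation and of the cytosolic ribosome lay lower in cerebellum almost as a block, and this turned with 2 libraries. Of 45 oxidative phosphorylation subunit genes 42 lay lower (median -0.22), and of 45 ribosomal protein genes 40 lay lower (median -0.14). None in either list was without overlap (7.63% of all genes) or reached an unadjusted p of 0.05. Atp5a1, a subunit of the ATP synthase, stood at 440.2, 371 and 371 CPM in cerebellum and at 409, 568 and 459 CPM in hippocampus. Cox5a, a subunit of cytochrome c oxidase, was at 101, 88.1 and 65.6 CPM against 101, 132 and 92.0 CPM. Rpl4, a protein of the large ribosomal subunit, was at 342, 269 and 215 CPM against 303, 406 and 328 CPM. Hippocampus 2 was the highest library and cerebellum 3 the lowest in Cox5a and Rpl4.

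Hippocampus 2 was the highest of the 6 libraries for 38 of the 45 oxidative phosphorylation genes and 40 of the 45 ribosomal genes, and cerebellum 3 the lowest for 40 and 35. The mean log2 deviation of the oxidative phosphorylation genes was 0.32, -0.14 and -0.49 in cerebellum and -0.00, 0.47 and -0.15 in hippocampus. That of the ribosomal genes was 0.25, -0.03 and -0.42 against -0.05, 0.44 and -0.19. Cerebellum 1 thus lay on the side of hippocampus 2 in both. Without hippocampus 2 and cerebellum 3, 39 of 45 oxidative phosphorylation genes lay higher (median 0.18) and 43 of 45 ribosomal genes lay higher (median 0.21), the opposite of the direction with all libraries. Leaving out only hippocampus 2 gave medians of 0.01 and 0.09. The ribosomal median was also 0.02 without cerebellum 3 alone.

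Transcript length moved with the same libraries. In the 3013 tested genes with the longest exonic sequence (6754 bases or more), the mean log2 deviation was -0.34, 0.10 and 0.37 in cerebellum and -0.08, -0.18 and 0.13 in hippocampus. In the 3016 shortest (2741 bases or fewer) it was 0.17, -0.06 and -0.16 against -0.09, 0.25 and -0.12. Cerebellum 3 was high in long genes and low in short genes, and hippocampus 2 and cerebellum 1 the reverse. The median difference went from -0.05 in the shortest to 0.09 in the longest genes with all libraries, and from 0.16 to -0.15 without hippocampus 2 and cerebellum 3. The median exonic length was 1908 bases for the oxidative phosphorylation genes and 1840 for the ribosomal genes, against 4388.5 over all tested genes. The part of length in these lists was not tested.

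**Figure D4:**
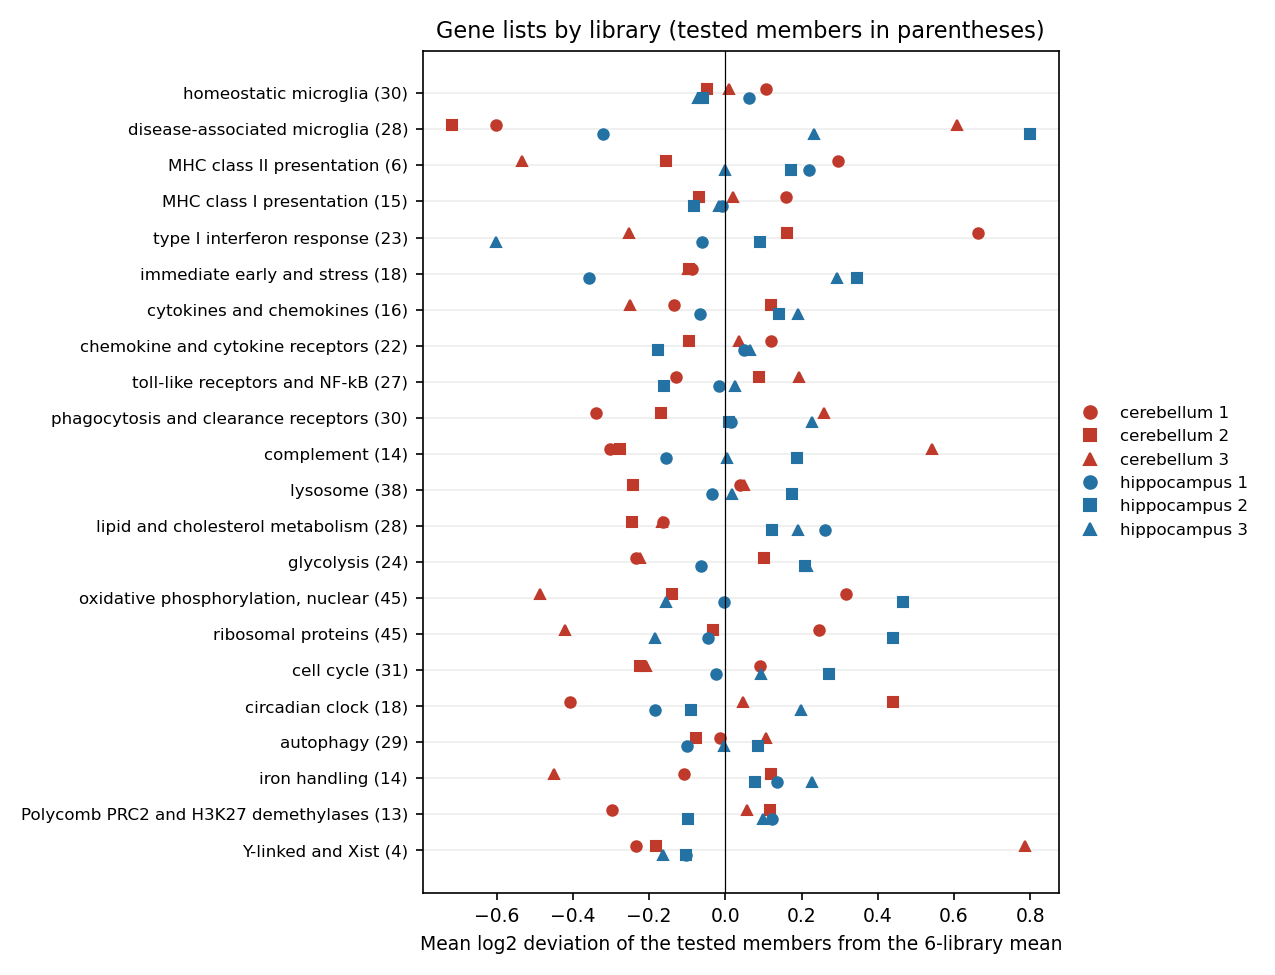
Mean log2 deviation of the tested members of each gene list from their mean over the 6 libraries, 1 point per library (red cerebellum, blue hippocampus), with the number of tested members in parentheses. For oxidative phosphorylation and ribosomal proteins hippocampus 2 (0.47 and 0.44) and cerebellum 1 lie to the right and cerebellum 3 to the left; in lipid and cholesterol metabolism the 3 cerebellum points lie left of the 3 hippocampus points.

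Genes of the interferon response lay higher for 15 of 23 tested members, with a median of 0.12 that became 0.35 (20 of 23 higher) without hippocampus 2 and cerebellum 3. Rsad2, the antiviral protein viperin, stood at 10.997, 7.65 and 3.35 CPM in cerebellum and at 0, 2.77 and 1.86 CPM in hippocampus. Usp18, which removes the ubiquitin-like protein Isg15, was at 12.6, 13.3 and 9.34 CPM against 7.90, 5.35 and 4.27 CPM. These were the 2 of 23 members without overlap (7.63% of all genes), and their intervals, -1.49 to 5.96 and -1.05 to 3.06, were wide. The mean deviation of the list was 0.66 in cerebellum 1 and -0.60 in hippocampus 3, with the other 4 libraries between -0.25 and 0.16. Without cerebellum 1 the median of the list was -0.15.

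Of the cell cycle genes 22 of 31 lay lower (median -0.25, and -0.06 without hippocampus 2 and cerebellum 3). Rrm1, a subunit of ribonucleotide reductase, stood at 230.5, 199 and 181 CPM in cerebellum and at 218, 289 and 341 CPM in hippocampus, with an unadjusted p of 0.0343 (adjusted p of 1.00 in edgeR) and overlap through hippocampus 1. The replicative helicase subunits Mcm6, Mcm4 and Mcm3 had differences of -0.52, -0.69 and -0.42, each with overlap. Hippocampus 1 lay among the cerebellum libraries in these 4 genes. Lysosomal genes were lower for 27 of 38 members with a median of -0.12, and for 34 of the 38 the interval lay within 2-fold. Hippocampus 2 was the highest hippocampus library for 27 of the 38, and without it and cerebellum 3 the count was 24 lower with a median of -0.07. Glb1, the lysosomal beta-galactosidase, was at 122, 70.1 and 124 CPM against 141, 140.2 and 138 CPM, a difference of -0.41, with cerebellum 2 far below the rest.

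Phagocytosis and clearance receptors were evenly divided, 15 higher and 15 lower, with a median of 0.00, and without hippocampus 2 and cerebellum 3 they stood at 9 and 21 with a median of -0.24. Scarb1, a scavenger receptor for lipoproteins, was at 163, 119 and 169.6 CPM against 170.2, 187 and 190.1 CPM. Itgav, the integrin alpha V chain that binds apoptotic cells through bridging proteins, was at 83.0, 191 and 164 CPM against 71.3, 48.0 and 109 CPM. Toll-like receptor and NF-kB genes lay higher for 17 of 27 (median 0.09) and for 14 without hippocampus 2 and cerebellum 3. Nfkbie, an inhibitor of NF-kB, was the 1 of 27 members without overlap, against 4.08% of all genes higher without overlap. It stood at 45.4 ± 4.51 CPM in cerebellum and 33.5 ± 7.22 CPM in hippocampus (SD, n = 3 each). Of the 18 immediate early and stress genes 14 lay lower (median -0.16), with Jund at 65.2, 69.5 and 68.5 CPM against 74.9, 87.3 and 82.1 CPM. Hippocampus 2 was the highest hippocampus library for 11 of these 18, and without it and cerebellum 3 they stood at 9 higher and 9 lower with a median of -0.05. Of the 16 cytokines and chemokines 9 lay lower (median -0.19, 0.03 without hippocampus 2 and -0.05 without hippocampus 2 and cerebellum 3). The chemokine Cxcl16 lay higher at 32.2, 38.9 and 46.3 CPM against 20.7, 30.2 and 26.8 CPM, the 1 of 16 without overlap (4.08% of all genes).

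The remaining lists had few members apart. Autophagy genes were 13 higher and 16 lower of 29 (median -0.05), and 17 and 12 without hippocampus 2 and cerebellum 3 (median 0.02). Ulk1, the kinase that starts autophagy, stood at 42.1, 60.9 and 71.7 CPM in cerebellum and at 50.1, 28.9 and 24.2 CPM in hippocampus. Its partner Atg13, at 46.3, 39.1 and 54.9 CPM against 24.8, 39.0 and 27.6 CPM, and the lipid transfer protein Atg2b, at 17.7, 20.8 and 48.4 CPM against 12.3, 11.7 and 11.2 CPM, lay higher without overlap. Both together were the 2 of 29 members without overlap (4.08% of all genes), and Atg13 was separated only by the narrow gap between cerebellum 2 and hippocampus 2. Among 13 genes of the Polycomb complex PRC2 and the H3K27 demethylases, 9 lay lower (median -0.14), while the demethylase Kdm6b was at 4.40, 12.6 and 3.83 CPM against 2.95, 3.60 and 1.40 CPM and Phf1, a PRC2 accessory protein, at 34.8, 39.0 and 43.6 CPM against 31.1, 17.4 and 30.8 CPM. Kdm6b and Phf1 were the 2 of 13 without overlap, both higher (4.08% of all genes). Clock genes were 11 higher and 7 lower of 18 (median 0.16, and -0.06 without hippocampus 2 and cerebellum 3), with Tef the 1 member without overlap, higher (4.08% of all genes). Iron handling genes were 4 higher and 10 lower of 14 (median -0.19), with 2 without overlap, both lower (3.55% of all genes). The 4 tested Y-linked genes all lay higher (median 0.26), which rested on cerebellum 3: Kdm5d was at 10.6, 15.8 and 56.0 CPM against 15.3, 16.8 and 15.3 CPM, and without that library and hippocampus 2 the median was -0.17.

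**Figure D5:**
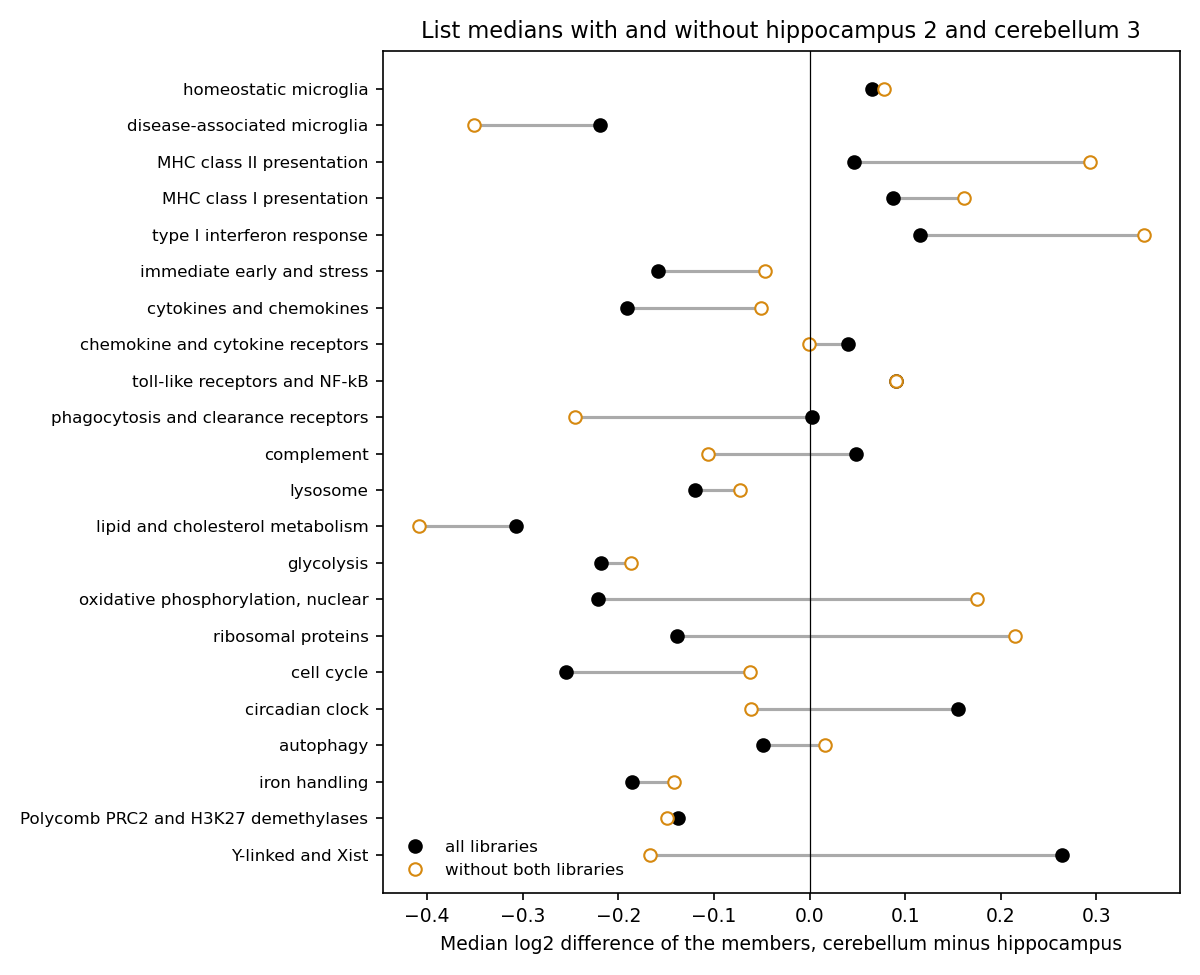
Median log2 difference (cerebellum minus hippocampus) of the tested members of each gene list with all libraries (black) and without hippocampus 2 and cerebellum 3 (open orange). The medians of oxidative phosphorylation (-0.22 to 0.18) and ribosomal proteins (-0.14 to 0.21) cross 0, while those of disease-associated, lipid and cholesterol, and glycolysis genes stay below 0.

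Markers of other cell types were examined in the same libraries. Border-associated macrophage markers (12 tested of 16) summed to 903, 1133 and 1898 CPM in cerebellum and to 1557, 935 and 1488 CPM in hippocampus, 4 higher and 8 lower with a median of -0.47. Mrc1, the mannose receptor of these cells, which is also found at lower levels in microglia, stood at 229, 389.5 and 581 CPM against 566, 338 and 614 CPM. Cd163, a haemoglobin scavenger receptor, was at 1.39, 3.59 and 26.1 CPM against 6.32, 0 and 3.42 CPM, and Cbr2, a carbonyl reductase, at 5.90, 3.98 and 7.18 CPM against 12.6, 13.8 and 14.4 CPM. Cd209a was at 0 in all 6 libraries. Cbr2 was the 1 of 12 tested markers without overlap, lower (3.55% of all genes), whereas the sum was highest in cerebellum 3 and low in hippocampus 2. Without hippocampus 2 and cerebellum 3 all 12 lay lower with a median of -1.21, and without hippocampus 3 the median was 0.02. Dab2 and Cd74, named above, are also expressed by these macrophages, and the part of these cells in their differences was not tested.

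Choroid plexus and ependyma markers summed to 0.347, 21.3 and 229.9 CPM in cerebellum and to 0.105, 49.6 and 0 CPM in hippocampus. Ttr, the transthyretin of choroid plexus epithelium, made up most of this at 0.347, 21.3 and 203 CPM against 0, 43.0 and 0 CPM. Cerebellum 3 and hippocampus 2 were thus the highest libraries of their regions here as in the disease-associated genes, and the part of such cells in those genes was not tested. Of the pan-neuronal markers 11 of 13 were tested, and hippocampus 2 was the highest hippocampus library for 10 of them. Their median was -0.89, 0.70 without hippocampus 2 and -0.18 without hippocampus 2 and cerebellum 3. The cerebellar granule neuron list, with 3 of 12 tested, summed to between 42.7 and 56.5 CPM, nearly all of it Etv1 and Chn2, and the hippocampal excitatory neuron list, with 5 of 15 tested, to between 30.6 and 99.2 CPM. Several defining markers of these lists were at 0 in all 6 libraries, among them Gabra6, Cbln1, Cbln3, Zic1 and Zic2 for cerebellar granule neurons and Spink8, C1ql2, Lct and Fibcd1 for hippocampal excitatory neurons. Pax6, also on the granule neuron list but below the filter, was at 0.116, 0.468 and 0.838 CPM in cerebellum and at 0 in hippocampus. T and NK cell markers summed to 0 to 2.10 CPM and none was tested, with Cd3d, Cd3e, Cd3g and Nkg7 at 0. B cell markers, with 3 of 8 tested, summed to 175, 135 and 102 CPM in cerebellum and to 148, 148 and 114 CPM in hippocampus. Of the tested B cell markers 2 lay higher and 1 lower, with a median of 3.64, and -0.12 in the fit of the 6 libraries alone. At an unadjusted p under 0.05 in edgeR there was 1, higher in cerebellum (0.72% of all genes). The antigen receptor subunit Cd79a was at 4.28, 9.84 and 0 CPM in cerebellum and at 0.948, 0.185 and 0 CPM in hippocampus, while Ms4a1 was at 0 in all 6 libraries. Most of the summed B cell marker level thus came from other members of the list. Haemoglobin RNA (Beta-s, now Hbb-bs) was at 63.7, 0.234 and 0 CPM against 138, 85.8 and 18.6 CPM, and the oligodendrocyte precursor factor Olig1 at 0, 0 and 0 CPM against 0.105, 4.98 and 0.932 CPM. The oligodendrocyte list summed to between 1124 and 1823 CPM, almost all of it Trf (transferrin), while Mobp, Cldn11, Ermn, Opalin, Mal and Ugt8a were at 0 in all 6 libraries.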

How the data were processed

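The authors deposited whole-number read counts per gene symbol for 12 libraries, without normalization. Per the submitters' processing notes, the tools were STAR 2.5.3a, HTSeq, Picard and Trim Galore 0.4.3, with the mm10 build. What each tool did, the annotation and the strand setting were not given in the sources used here. The cDNA had been amplified for 9 cycles and the libraries for 13, per the labels' protocols.

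Of 23337 symbols, 20756 matched a RefSeq gene (GRCm38.p6) directly and 2306 through a synonym, and coordinates come from that table. Genes were kept by filterByExpr by region (minimum count 10, minimum total 15). TMM scaling and edgeR 4.0.16 (R 4.3.3, robust glmQLFit and glmQLFTest) were applied to all 12 libraries with 1 mean a region, and the contrast was cerebellum minus hippocampus. P-values were adjusted by Benjamini-Hochberg over all genes tested, with a threshold of 0.05. Intervals are 95% intervals of the quasi-likelihood fit, and have no width where the difference is exactly 0. A count of 0 in 1 library allowed up to 3 counts, 0.233 to 0.351 CPM. Fold bounds use 3 counts over the 3 libraries of a region together. Both cover counting error only. Exonic lengths come from GENCODE (98.7% of tested genes). The pipeline was tested on simulated counts.

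Genes were named by rule: the 12 higher and 12 lower with the smallest p among non-overlapping genes of 10 CPM or more in the higher region, 4 and 4 below that level, and up to 4 with the smallest p from each of the 39 lists, clone names and ribosomal proteins left out of the first 2 sets. The members, lists and rules were chosen with earlier results of these data known. Alternatives were DESeq2 1.42.0, limma-voom (limma 3.58.1), other scaling and filters, the 6 libraries alone, each library left out, and the replicate number as a block. A few genes that the rules chose are not reported here.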

Additional observations from a re-analysis of the deposited data

How the results depend on the processing

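No gene passed the adjusted threshold under any edgeR or limma-voom setting run, and DESeq2 called 2 genes, both with counts in at most 2 hippocampus libraries. The 156 genes at an unadjusted p under 0.05 became 280 with the 6 libraries alone, 284 without a filter on low counts and 101 with a mean of at least 50 counts. With the 6 libraries alone, 116 of the 156 passed the filter and were tested, and 108 of these stayed under that p. Leaving out 1 library gave between 106 (without cerebellum 2) and 357 (without cerebellum 1), and 351 without striatum 2, which is not part of the comparison but enters the shared spread. The cause was not tested. The count of 932 genes whose libraries do not overlap became 3868 without hippocampus 2 and cerebellum 3 and between 1703 and 3171 when 1 of the 6 libraries was left out, where fewer libraries a region are compared. The 4220 genes with an interval within 2-fold became 2610 without hippocampus 2 and cerebellum 3, with 2 libraries a region. Fitting the replicate number as a replicate block gave 0 genes at the adjusted threshold and 161 at the unadjusted one, 111 of them shared with the 156. Deviations of same-numbered libraries correlated by 0.011, -0.095 and 0.142 across genes, and the labels do not say whether such libraries share mice, so the numbers were used only as names.

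Across the alternatives, 0 of 832 values of named genes crossed the adjusted threshold and 10 changed sign, while 63 of 693 list medians changed sign. The medians of the disease-associated, lipid and cholesterol, glycolysis, lysosome and cell cycle lists were negative in every setting run. The same held for the immediate early and stress, iron handling and Polycomb lists. Some of these medians came close to no difference, with -0.004 for lysosome without cerebellum 2 and -0.01 for disease-associated genes without hippocampus 2. Precision was lowest for genes of low level, and none of the 2504 genes between 1 and 10 CPM had an interval within 2-fold. The share of depth and of spread between libraries in this was not tested.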
